A study of Mus musculus with 8 samples.

Results

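The microRNAs miR-132, miR-212 and miR-210, each tied to signalling in stimulated or oxygen-starved cells, were measured in brown fat, the depot that burns fuel for heat, of mice kept in the cold. They were chosen by name, as the array rows annotated exactly mmu-miR-132, mmu-miR-212 and mmu-miR-210, and are 3 of the 566 mouse miRNAs on the array and 3 of the 189 that were tested. The groups were 3 male C57Bl6N mice held at 8 °C for 24 h (mice 1, 2 and 3) and 3 male C57Bl6N mice held at room temperature, 21 °C (mice 4, 5 and 6), all aged 8 weeks. Total RNA from the brown adipose tissue of each mouse was hybridised to a 1-colour Agilent miRNA array. Mice 1 and 4 were each run on a second array as a technical repeat, which gave 8 arrays, and the arrays of such a mouse were averaged. The question was which of the 3 miRNAs differed between cold and room temperature, and whether neighbouring miRNAs of one family moved alike.

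Cold activates sympathetic nerves in brown fat, whose noradrenaline raises cyclic AMP in the adipocyte. Protein kinase A then phosphorylates CREB, a transcription factor that binds cyclic AMP response elements. The hairpins of miR-132 and miR-212 lie side by side and are classic CREB-responsive miRNA genes, studied mostly in neurons. miR-210 is the best known miRNA target of the hypoxia-inducible factors and represses iron-sulphur cluster assembly in mitochondria.

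The mature sequences show why miR-132 and miR-212 belong together and miR-210 does not. They are given 5′ to 3′ from RefSeq (GRCm38.p6), where the older array names were matched to the -3p strand of each hairpin, with the seed, the bases 2 to 8 that pair with targets, in capitals.
miR-132: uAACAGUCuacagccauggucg
miR-212: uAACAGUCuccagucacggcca
miR-210: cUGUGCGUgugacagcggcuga
miR-132 and miR-212 carry the same seed, AACAGUC, and no other mouse miRNA of the 1738 mature sequences in that table carries it. They are identical at 17 of 22 bases, including the first 9. The substitutions are A10C, C14U, U17C, U20C and G22A, counted from 1 at the 5′ end, with the base of miR-132 first. The array probes that read them are therefore aimed at related RNAs, and cross-hybridisation between the pair was not tested. No other miRNA of the table shares the seed of miR-210.

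The hairpins themselves, with the mature strand in capitals, show the arrangement in the genome.
Mir212: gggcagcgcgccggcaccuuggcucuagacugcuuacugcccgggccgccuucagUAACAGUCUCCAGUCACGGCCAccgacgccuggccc
Mir132: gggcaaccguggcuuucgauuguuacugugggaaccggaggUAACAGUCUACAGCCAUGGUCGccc
Mir212 lies at chr11:75173388-75173478 and Mir132 at chr11:75173682-75173747, both on the plus strand of GRCm38.p6, with 203 bases between them. No annotated gene lies between them, and the nearest protein-coding genes on either side are Hic1 and Ovca2. Mir210 lies at chr7:141221384-141221493 on the minus strand, between Rassf7 and Gm51460.

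Each of the 3 miRNAs was read by 2 probes, each printed in 10 spots, and all 6 probes were dim. Signals are background-subtracted intensities in scanner units. The probe of miR-132 that passed the filter gave 17.2, 28.4 and 29.1 units in cold mice 1, 2 and 3, and 13.8, 13.6 and 19.3 units in room temperature mice 4, 5 and 6. Before scaling, therefore, mouse 1 of the cold group lay below mouse 6 of the other group. The probe of miR-212 that passed gave 9.17, 14.5 and 16.0 units in the cold and 15.6, 14.3 and 18.9 units at room temperature. That of miR-210 gave 31.3, 46.1 and 45.3 units in the cold and 51.8, 38.1 and 68.8 units at room temperature. For scale, the 95th percentile of the 672 negative control spots lay between 3.50 and 5.28 units over the 8 arrays, and no spot was saturated.

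The arrays differed in overall brightness, so a value was taken relative to the 75th percentile of its own array, over the 267 probes detected on all arrays. That percentile averaged 793 ± 150 units for cold mice against 1085 ± 286 units for room temperature mice (SD, n = 3 each), so scaling raised the cold values relative to the others. Levels below are log2 of this ratio.

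miR-132 stood at -5.19, -4.88 and -4.98 in cold mice 1, 2 and 3, and at -6.16, -5.99 and -6.19 in room temperature mice 4, 5 and 6. Every cold mouse lay above every room temperature mouse. The group means were -5.01 ± 0.16 and -6.11 ± 0.11 (SD, n = 3 each), a difference of 1.10 (95% confidence interval 0.78 to 1.42), or 2.14-fold. miR-132 rose (limma across all 189 miRNAs, Benjamini-Hochberg adjusted p = 0.00362). Its probe had entered the test through the cold group, where it was the brighter, and the call was lost with no filter on dim probes (0.95, limma adjusted p = 0.157). That run tested 566 miRNAs. It also averaged in the second miR-132 probe, which was at the lower limit set for dim signals (0.01) on all 4 room temperature arrays. The call was also lost with no scaling (0.66, limma adjusted p = 0.222) and with a modelled background (0.58, limma adjusted p = 0.073).

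**Figure D1:**
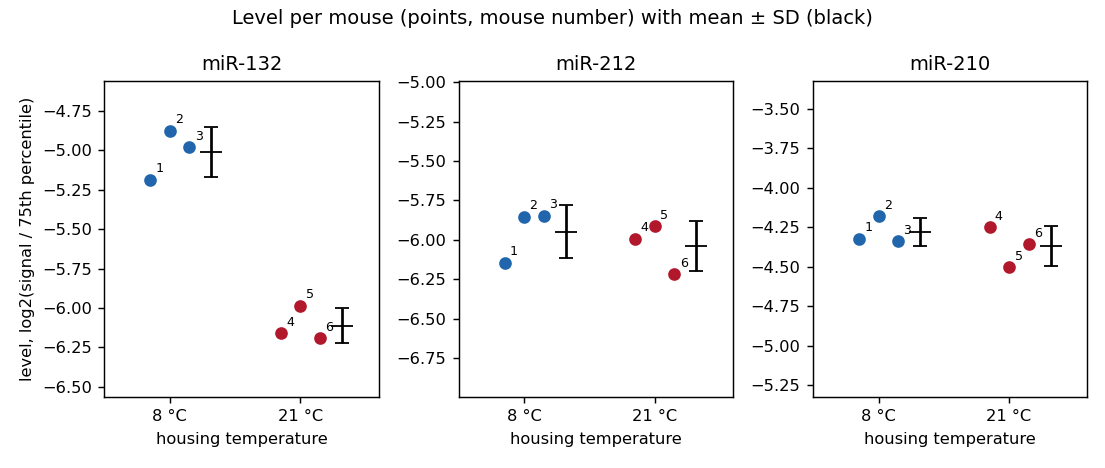
Level of each miRNA per mouse on the log2(signal / 75th percentile) scale at 8 °C (blue) and 21 °C (red), with mouse numbers and, in black, the mean ± SD of 3 mice. The axes span the same range of log2 units. The cold mice of miR-132 (-5.19 to -4.88) all lie above the room temperature mice (-6.19 to -5.99), and the groups overlap for miR-212 and miR-210.

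miR-212, the seed partner of miR-132, stood at -6.14, -5.85 and -5.85 in the cold and at -5.99, -5.91 and -6.22 at room temperature. The groups overlapped. The difference was 0.09 (95% confidence interval -0.25 to 0.44) and did not pass the test (limma adjusted p = 0.697). In this processing the interval leaves room for a 1.35-fold rise but not for the 2.14-fold rise seen for miR-132. With a modelled background the miR-212 interval was -0.04 to 0.75, which holds the change of miR-132 in that run (0.58).

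miR-210, the hypoxia marker, stood at -4.32, -4.18 and -4.34 in the cold and at -4.25, -4.50 and -4.36 at room temperature. Its groups overlapped too. The difference was 0.09 (95% confidence interval -0.21 to 0.39), with a limma adjusted p of 0.675.

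Of the 189 miRNAs tested, 29 (15.3%) passed the threshold, 16 of them higher (8.47%) and 13 lower (6.88%) in the cold. That split moved with the scaling, to 8 higher and 17 lower when arrays were scaled to control RNAs, 11 and 17 with the percentile over all miRNA probes, and 1 and 14 with no scaling. Groups that did not overlap were common in this experiment, at 73 of 189 miRNAs (38.6%), so the separation of the mice for miR-132 is not by itself unusual. Leaving out any 1 mouse kept the call for miR-132, with differences of 1.03 to 1.18.

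**Figure D2:**
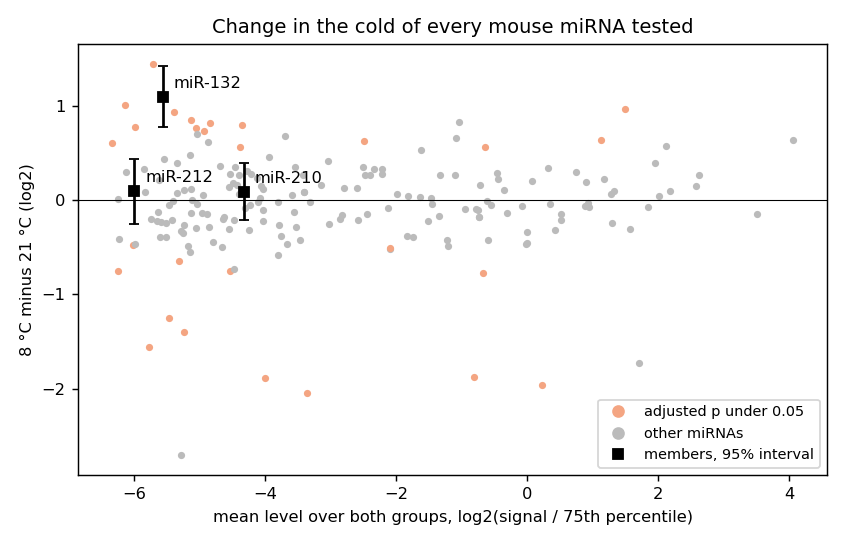
Change in the cold (log2, 8 °C minus 21 °C, y axis) against mean level over both groups (x axis, log2 of signal over the 75th percentile) for 189 miRNAs, with orange for limma adjusted p under 0.05. Black squares with 95% confidence intervals mark miR-132 at 1.10, miR-212 at 0.09 and miR-210 at 0.09, all at the dim end or below the middle of the range.

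The changes of the 3 miRNAs were then set against each other within each mouse. An array's scaling factor drops out of such a difference, except where a level was set to the floor of 0.01 for dim signals, as for miR-212 on the first array of mouse 1. The level of miR-132 minus that of miR-212 came to 0.96, 0.98 and 0.87 in mice 1, 2 and 3 and to -0.16, -0.07 and 0.02 in mice 4, 5 and 6. All 3 cold mice lay above all 3 others, and the changes differed by 1.00, or by 0.226 with a modelled background. The detection filter let miR-132 in through the cold group and miR-212 through the room temperature group. Such a filter favours a contrast in this direction, so the separation of this pair is not free of it. miR-132 minus miR-210 was -0.87, -0.70 and -0.64 in the cold and -1.91, -1.48 and -1.84 at room temperature, again without overlap and with a difference of changes of 1.01, or 0.304 with a modelled background. For both pairs the 2-sided exact permutation test gave p = 0.1, the smallest that 3 mice against 3 allow, and 0.15 after adjustment over the 3 pairs. miR-132 alone already separated the groups, as did 38.6% of all miRNAs in either direction, so the separation of these pairs is not independent of it. The share of other miRNA pairs that separate was not counted. miR-212 and miR-210 changed by amounts that differed by 0.0045 (exact permutation p = 1).

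Detection limited miR-212 most. Its tested probe was well above background, in more than 0.5 of its spots, on 2 of 4 cold arrays and 4 of 4 room temperature arrays, and its other probe on none of the 8. The tested probe of miR-132 was well above background on 4 of 4 cold and 3 of 4 room temperature arrays, so miR-132 entered the test through the cold group and miR-212 through the room temperature group. The tested probe of miR-210 was well above background on all 8 arrays. The second probe of miR-132, not used in the test, gave 8.96, 17.2 and 17.5 units in the cold against 4.29, 4.60 and 7.98 units at room temperature, where no array passed. The second probe of miR-210 gave 9.41 to 15.9 units in the cold and 10.5 to 17.3 units at room temperature. After scaling, that probe changed by 0.36, against 0.09 for the tested probe. With no filter on dim probes, where both were averaged, miR-210 stood at 0.22 (limma adjusted p = 0.427).

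Repeat arrays of the same mouse gave the technical spread. For miR-132 the second array lay 0.18 below the first in mouse 1 and 0.25 below it in mouse 4. For miR-210 it lay 0.24 and 0.02 below. For miR-212 it lay 1.00 above the first in mouse 1, whose first array was at the floor set for dim signals, and 0.33 above in mouse 4. The gap for mouse 1 would be larger without the floor.

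Signal also depended on where a spot lay on the array, and in opposite ways in the groups. Over bright probes other than those of the 3 miRNAs, array rows 1 to 8 were 68.1-fold below the best rows on the cold arrays and 2.64-fold below on the room temperature arrays. Rows 185 to 192 were 3.12-fold below the best rows on the cold arrays and 43.4-fold below on the room temperature arrays. All arrays were on the same slide, with the cold arrays in its first row of arrays and the room temperature arrays in its second, so slide row and temperature cannot be told apart. Slide columns held both groups, with mice 1 and 4, 2 and 5, and 3 and 6 side by side. With the slide column as a block, an alternative added after seeing the data, miR-132 still rose by 1.10 (limma adjusted p = 0.013), while miR-212 and miR-210 still did not pass.

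**Figure D3:**
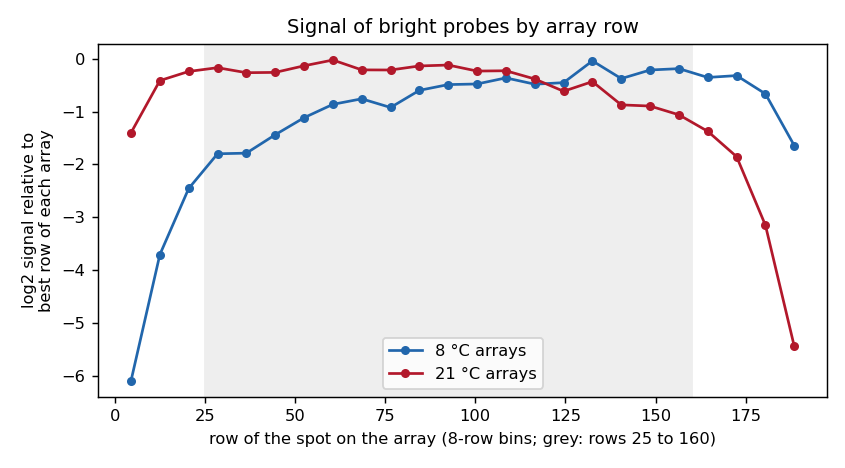
Signal of bright probes by array row, as the mean over the 4 arrays of each group in 8-row bins, in log2 units relative to the best bin of each array. Cold arrays (blue) are 68.1-fold down in the first rows and room temperature arrays (red) 43.4-fold down in the last rows.

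The spots of the miR-132 probe followed this profile. At row 18 they gave a mean of 4.54 units in the cold and 31.4 at room temperature, the opposite of the overall change. At row 151 they gave 45.2 units in the cold and 18.4 at room temperature, and at row 188 they gave 23.3 and 0.38 units. For miR-210 the spots at row 188 gave 37.6 units in the cold and 5.90 at room temperature, although its mean level did not pass the test.

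**Figure D4:**
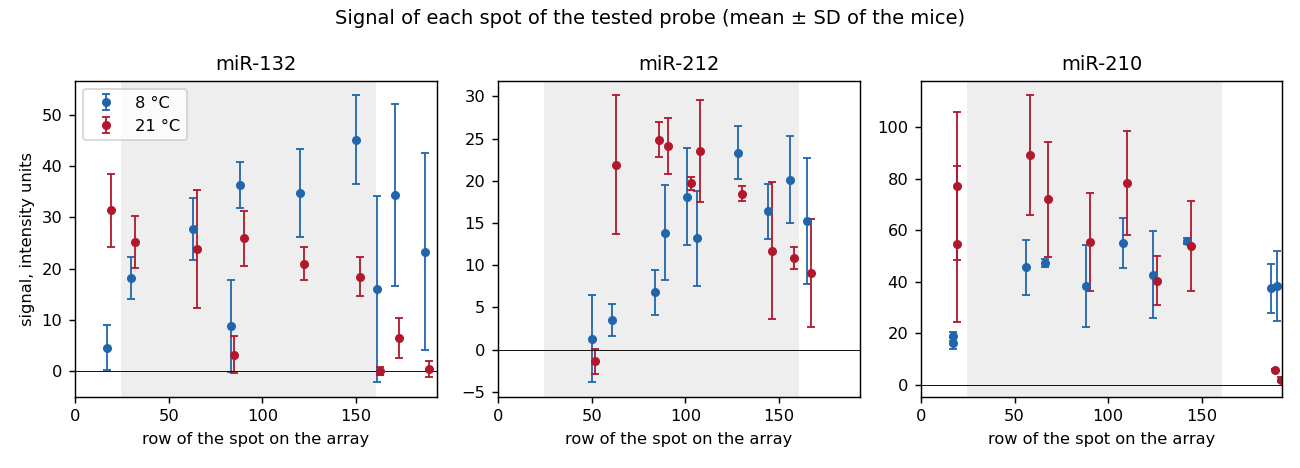
Background-subtracted signal (intensity units) of each spot of the tested probe of miR-132, miR-212 and miR-210 against its array row, as mean ± SD over the mice of a group (8 °C blue, 21 °C red; 2 or 3 mice per spot after outlier spots were dropped). Grey marks rows 25 to 160. For miR-132 the red points are higher at row 18 and the blue points at rows 151 and 188.

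Alternatives chosen after seeing this were therefore run on all miRNAs. With only the spots in rows 25 to 160 and columns 11 to 70, which left 4 of 10 spots of the miR-132 probe, miR-132 rose by 1.01 (limma adjusted p = 0.00871). In that run 31 of 188 miRNAs (16.5%) passed, 20 of them higher (10.6%). With each spot weighted by a row and column profile fitted per array, miR-132 rose by 1.07 (limma adjusted p = 0.00785) and had the smallest p of all 189 miRNAs. In that run 9 miRNAs (4.76%) passed, 7 of them higher (3.7%), and all 9 were among the 29 called before. The cold and room temperature mice of miR-132 did not overlap under either alternative, as was true of 34% and 27% of all miRNAs. Adding the second probe gave rises of 0.88 (limma adjusted p = 0.0147) and 0.85 (limma adjusted p = 0.00779), but that probe was at the floor on all 4 room temperature arrays, so these sizes depend on the floor. Without mouse 6 the size held, at 1.05 and 1.06, but the call was lost (limma adjusted p = 0.0502 with central spots, 0.0669 with the profile).

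The profile can also be divided out spot by spot. Of the 10 spots of the tested miR-132 probe, 4 lay where the profile stayed at 0.3 or more of an average spot on every array. After division the cold mean was higher at all 4 and the mice did not overlap at any of them. At row 64 the corrected signal, in thousandths of the 75th percentile, was 35.5 in the cold and 12.7 at room temperature, and at row 89 it was 33.8 and 18.7. For the second probe the cold mean was higher at 7 of 7 such spots, and the mice did not overlap at 5 of them. For miR-212 the cold mean was higher at 3 of 9 such spots of the tested probe and 2 of 6 of the other. Its cold mice lay wholly above the others at 0 spots of either probe. They lay wholly below the others at rows 62 and 85 of the tested probe. The highest cold values there were 6.42 and 9.29, and the lowest room temperature values 9.47 and 11.7. For miR-210 the cold mean was higher at 1 of 4 spots of the tested probe and 4 of 6 of the other. Its cold mice lay wholly above the others at 1 spot of each probe. At row 109 of the tested probe, with 2 cold mice, they lay wholly below (highest 45.3 against lowest 47.1). The share of such spots over the probes of all miRNAs was not counted. Spots of a probe share the RNA of the same 6 mice and are not replicates.

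Under the position alternatives miR-212 moved to -0.05 with both, and miR-210 stood at 0.04 with central spots and 0.13 with the profile. With both probes averaged, miR-210 stood at 0.05 and 0.09 in the same order. None of these passed the test. The sign of the miR-212 change therefore depends on the processing, as does that of miR-210 under other scalings.

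**Figure D5:**
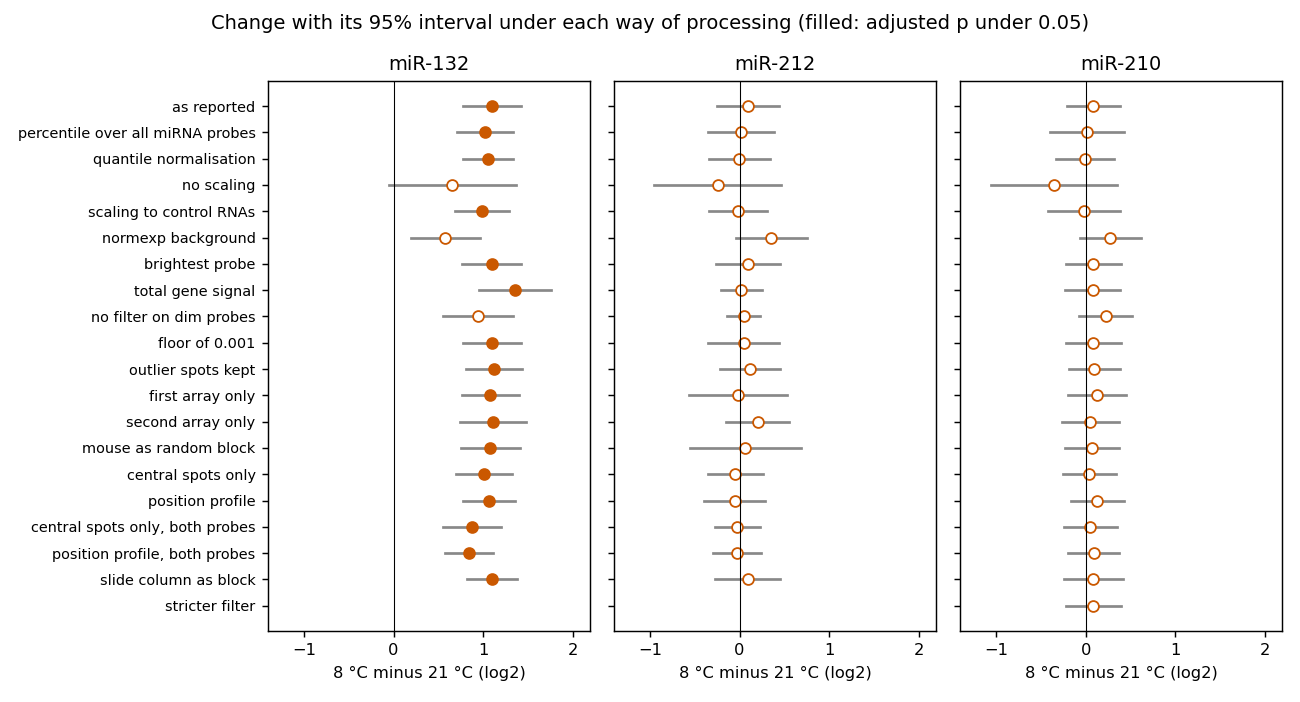
Change in the cold (log2, 8 °C minus 21 °C) of each miRNA with its 95% confidence interval under each way of processing, filled where limma adjusted p was under 0.05. miR-132 lies above 0 under every setting drawn, from 0.58 with a modelled background to 1.36 with the total gene signal, where 2 room temperature mice sit at the floor, and is open for no scaling, modelled background and no filter on dim probes. miR-212 and miR-210 are drawn on both sides of 0 and are never filled.

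The miRNAs whose levels over the 6 mice ran closest to miR-132, by root mean square difference of centred log2 levels, were miR-30c-1* (0.23), miR-193* (0.23) and miR-669n (0.24). The asterisk marks the lesser strand of a hairpin in the array's older naming. Their changes were 0.77 (limma adjusted p = 0.0205), 0.73 (limma adjusted p = 0.0222) and 0.78 (limma adjusted p = 0.0121). Since they were chosen for running with miR-132 over the same mice, these changes are a description. With central spots only they stood at 0.67, 0.20 and 0.80, and with the position profile at 0.89, 0.35 and 0.93. In both runs miR-193* did not pass (limma adjusted p = 0.529 and 0.376). With no scaling they stood at 0.33, 0.29 and 0.35, and none passed. Scaled to control RNAs they stood at 0.66, 0.62 and 0.68, and only miR-669n passed (limma adjusted p = 0.0281). The nearest to miR-212 were miR-331-3p (0.07), miR-20a (0.09) and miR-23a (0.09). The nearest to miR-210 were miR-20a (0.10), miR-146b (0.10) and miR-10b (0.10). miR-20a belongs to the miR-17-92 family of clusters.

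Of 8 miRNAs listed as activity-regulated or CREB-linked, 4 were measured and 1, miR-132 itself, rose, where 8.47% of all miRNAs tested did. miR-329 stood at -0.49 (limma adjusted p = 0.19), and miR-379 at 0.12 (limma adjusted p = 0.795). Both come from the large imprinted miRNA cluster that neurons transcribe on activity. The list's median change was 0.11, against -0.02 over all 189 miRNAs. These values moved with the position alternatives. With central spots only miR-329 stood at -0.30 and miR-379 at 0.13, and with the position profile at -0.05 and -0.10. The list's median change was then 0.04 and -0.05, against 0.04 and 0.02 over all miRNAs, in the same order. miR-134, miR-184, miR-381 and miR-485 passed the detection filter in neither group.

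Of 19 miRNAs listed as hypoxia-linked, all were measured and 1 rose, against 8.47% of all miRNAs tested, with a list median of -0.04. That was miR-93, a member of the miR-17 seed family, at 0.62 (limma adjusted p = 0.0222). It did not pass with central spots only, where it stood at -0.11, or with the position profile, where it stood at 0.17. miR-181b, named here after its values were seen, passed with central spots only (0.67, limma adjusted p = 0.0343). With the position profile none of the 19 passed by limma, in a run where 4.76% of all miRNAs did and 46 of 189 had an unadjusted p under 0.05.

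Markers of cell types that the tissue can hold were measured beside these changes. Of 10 neural miRNAs listed, 8 were well above background on no array, among them miR-124 and miR-9, which define neurons. The summed level of the list, in units of the 75th percentile, was 0.0445 to 0.0479 in the cold and 0.0494 to 0.0648 at room temperature, and only miR-128 and miR-219 of it were measured. Of the 4 brown adipocyte miRNAs, miR-193b (0.64, limma adjusted p = 0.0129) and miR-378 (0.97, limma adjusted p = 0.0219) rose, where 8.47% of all miRNAs tested did. In the same list miR-365 stood at -0.07 and miR-455 at 0.13. The list summed to 10.2 to 12.9 in the cold and 7.91 to 9.57 at room temperature. With central spots only 2 of the 4 rose, where 10.6% of all miRNAs did. With the position profile none of the 4 passed, in a run where 4.76% of all miRNAs did.

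The striated muscle list summed to 2.12 to 10.6 in the cold and 12.2 to 18.0 at room temperature. Of its 4 measured members 3 fell, against 6.88% of all miRNAs tested. With central spots only 1 of them fell, where 11 of 188 miRNAs did. With the position profile none of them did, where 2 of 189 miRNAs did, and the list's median change was still -1.88. The erythroid list summed to 17.8 to 28.7 in the cold and 12.7 to 15.8 at room temperature, and the leukocyte list to 0.733 to 1.16 and 1.25 to 1.32. No member of these 2 lists passed the test by limma, and 4 of the 8 had an unadjusted p under 0.05, where 62 of all 189 did. The leukocyte median change was -0.43, against -0.04 with central spots only and -0.23 with the position profile. The erythroid median change was 0.64, against 0.68 and 0.48 in the same order. The sums of the endothelial list, 12 to 13.6 and 11.6 to 13.4, and of the liver list, 0.101 to 0.113 and 0.109 to 0.337, overlapped between the groups. Within the liver list miR-122 stood at -2.71 (limma adjusted p = 0.115), with its cold mean at the floor. The other liver miRNAs, miR-192 and miR-194, stood at 0.05 and 0.12. The part of these cell types in the change of miR-132 was not tested, and in whole tissue fewer cells of a type and less RNA per cell cannot be told apart.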

How the data were processed

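Each deposited file holds the scanner output of 1 array, with background-subtracted spot intensity on a linear scale as written for the authors by Agilent Feature Extraction (10.7.3.1 per the file headers, 9.5.3.1 per the submitters' processing notes). The authors' deposited value table held the same intensities (largest difference 0). Other deposited columns used were flags and spot positions.

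Outlier spots were dropped, spots of a probe averaged, arrays divided by their 75th percentile over probes detected on all arrays, values under 0.01 set to 0.01, and log2 taken. A probe was kept where every array of at least 1 group had more than 0.5 of its spots flagged well above background, which 329 of 1712 probes met. Mouse means were tested with limma 3.58.1 in R 4.3.3, with Benjamini-Hochberg adjustment at 0.05. That fit was checked on simulated independent values of equal spread, with no floor and no position effect, so the check does not cover these features of the arrays. Pairs were compared by exact permutation. With 3 mice per group and dim probes, the number of arrays limits the precision.

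The members, lists and tests were chosen with earlier results of these data known. Named were the 3 members, the 3 nearest profiles of each, and list members that passed the test (or those with the smallest p). Sequences and positions come from RefSeq GRCm38.p6, and the array files name no build.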

Additional observations from a re-analysis of the deposited data

How the results depend on the processing

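miR-132 stayed above 0 in all 36 alternatives and kept its call in 31. It lost it with no scaling (0.658), with a modelled (normexp) background (0.58), which had to use the spots' median signal, and with no filter on dim probes (0.948). The call was also lost without mouse 6 under central spots (limma adjusted p = 0.0502) and under the profile (limma adjusted p = 0.0669). Leaving out 1 mouse, with or without a position alternative, gave 0.942 to 1.18. miR-212 turned below 0 with quantile normalisation (-0.00114), no scaling (-0.245), control RNAs (-0.02), the first array only (-0.0183), central spots (-0.0462, both probes -0.0231) and the position profile (-0.0535, both probes -0.0268), where the both-probe values are smaller by construction because the second probe was at the floor on all arrays. It ranged from -0.15 to 0.191 without 1 mouse. miR-210 turned below 0 with quantile normalisation (-0.00675), no scaling (-0.352) and control RNAs (-0.0181), and ranged from -0.0227 to 0.201 without 1 mouse. No scaling moved the median of all miRNAs to -0.46.

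miR-132 minus miR-212 came to 0.902 with no scaling, 0.226 with normexp, 1.34 with the total gene signal (levels partly at the floor, as for the pair with miR-210), 0.901 with no filter, 1.10 with the first array and 0.906 with the second. It came to 1.12 with the profile, and to 0.938 to 1.26 without 1 mouse. With both probes it came to 0.899 under central spots and 0.873 under the profile. Second probes at the floor enter there and in the run with no filter. miR-132 minus miR-210 came to 0.304 with normexp, 1.28 with the total gene signal, 0.724 with no filter, 0.825 and 0.753 with both probes, and 0.824 to 1.14 without 1 mouse. miR-212 minus miR-210 ranged from -0.281 to 0.136 without 1 mouse.

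The 29 calls over all miRNAs became 15 with no scaling (1 higher, 14 lower), 6 with normexp, 16 with a stricter filter, 5 with no filter and 9 with the position profile, with or without both probes. They numbered 43 with quantile normalisation, 37 with the brightest probe, 35 with the total gene signal and 31 with the slide column as a block. Without 1 mouse they numbered 8 to 33, and 0 to 33 counting the position alternatives. By limma no miRNA passed without mouse 6 under either position alternative, where 49 (central spots) and 31 (profile) had an unadjusted p under 0.05. The stricter filter left no value for miR-132 or miR-212, and the random block gave none for the pairs. The dimness of all 6 probes limits the sizes given. No paired analysis by mouse was possible because the groups share no mouse numbers. The slide column as a block changed no call of the 3 miRNAs.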
